A study of Mus musculus with 6 samples.

Results

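The actin filaments that push a crawling neutrophil forward and the myosin that pulls its rear are built and controlled by the products of 45 mouse genes described here. The genes were chosen by name: the cytoplasmic actins and the proteins that bind actin monomers, the Arp2/3 complex and its activators, formins, severing and capping proteins, the kinases and the phosphatase of cofilin, bundling and membrane-linking proteins, and non-muscle myosin II with tropomyosins and the kinases Rock1 and Rock2. Each of the 45 was found as 1 row among the 51789 genes of the deposited table. All 45 passed the filter on low counts and are among the 10397 genes tested.

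RNA came from neutrophils taken from mouse bone marrow by magnetic beads against Ly6G, at a stated purity above 95%, and was read as tags from the 3′ ends of polyadenylated transcripts (Lexogen QuantSeq). One group of 3 samples is labelled KO, knockout for Snph, and its counterpart of 3 samples is labelled WT, with Snph as control. Snph encodes syntaphilin, which anchors mitochondria to microtubules, and the title of the study concerns neutrophil migration in cancer. The sources used here give no strain, age or sex, no deleted part of Snph and no word on pooled animals. Nor do they say that samples came from separate animals, so a p-value covers only sample-to-sample spread, part of which may be technical. Snph itself had 5, 2 and 8 counts in KO 1, 2 and 3 and 0 counts in each WT library, which goes against the labels. A tag outside the deleted part would not test the label, and the groups are called KO-labelled and WT-labelled throughout.

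Total counts were 7179569 to 9165218 in the KO-labelled and 7018388 to 9664381 in the WT-labelled libraries. In a principal component analysis KO 3 scored -3.91 on the leading axis, which held 27.9% of the variance, closer to the WT-labelled libraries (-18.3 to -13.2) than to KO 1 and KO 2 (23.5 and 29.2). All 11 neutrophil markers checked were detected, with a summed level of 317130 to 338151 CPM (counts scaled to library size and by TMM factors) in KO-labelled and 278128 to 298305 CPM in WT-labelled libraries, and 2 of the 11 rose. Markers of other cells moved between the groups as well. Macrophage markers summed to 547 to 683 CPM in KO-labelled and 1207 to 1291 CPM in WT-labelled libraries, and 11 of 11 fell. Platelet markers summed to 398 to 437 CPM in KO-labelled and 457 to 517 CPM in WT-labelled libraries, with 3 of 9 tested lower and Tubb1 at 0 counts everywhere. Plasma and B cell markers summed to 544 to 1317 CPM in KO-labelled and 337 to 396 CPM in WT-labelled libraries, with 3 of 8 higher. Monocyte markers (5 tested; 1519 to 1682 CPM in KO-labelled and 1451 to 1691 CPM in WT-labelled libraries), erythroid markers (7 tested; 1400.2 to 2780.1 CPM and, in WT-labelled libraries, 1282 to 2125 CPM), T and NK cell markers (2 tested; 37.4 to 43.7 CPM and, in WT-labelled libraries, 31.8 to 40.5 CPM) and cycling cell markers (5 tested; 105 to 146 CPM and, in WT-labelled libraries, 113 to 146 CPM) held no gene past the test. Macrophages and platelets also express actin and myosin genes, and the part of these cells in the values below was not tested.

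Neutrophils move by growing a branched actin network at the front. The Arp2/3 complex starts new branches once WASP or the WAVE complex activates it, formins lengthen unbranched filaments, and capping protein stops growth. Cofilin, with its helpers, cuts old filaments into monomers, which thymosin beta 4 and profilin hold for the next round. At the rear, kinases that phosphorylate its light chains switch on non-muscle myosin II, which contracts the cell.

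None of the 45 genes differed between the KO-labelled and WT-labelled libraries at an adjusted p under 0.05 in edgeR's quasi-likelihood test, where 107 of all 10397 tested genes, or 1.03%, did. DESeq2 and limma-voom called none of the 45 either. At an unadjusted p under 0.05 there were 4 of the 45 (8.89%), against 11.4% of all tested genes: Tmsb10 and Was, at lower levels in the KO-labelled libraries, and Cfl1 and Myl6, at higher levels. The median log2 fold change (KO-labelled over WT-labelled) was 0.073, with 34 genes above 0 and 11 below, and the median of all tested genes was 0.0057. With scaling to total counts only, the median of all tested genes shifted by -0.10, the median of the 45 was -0.031 and 15 of the 45 lay above 0. Taken relative to the median of all tested genes, the median of the 45 stayed between 0.049 and 0.092 under every alternative run.

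Most of these genes were abundant, and abundant genes as a whole lay above 0. Of the 38 members with a mean of at least 100 CPM 31 lay above 0, with a median of 0.090. Of all 1340 tested genes at that level 1014 lay above 0, with a median of 0.079. The level was chosen after the values were seen. The KO-labelled libraries were all above the WT-labelled ones for 9 of the 45 genes (20.0%, against 7.48% of all tested genes) and all below for 6 (13.3%, against 9.32%). Together these 15 genes were 33.3% of the members, where 16.8% of all tested genes had groups that did not overlap. At or above 100 CPM in the mean, the KO-labelled libraries were all above for 9 of 38 members (23.7%, against 21.9% of all such genes), and all below for 4 (10.5%, against 4.25%). In either direction these were 34.2% of such members, against 26.1% of all such genes.

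The intervals bound the size of the differences. For 43 of the 45 genes the 95% interval of the fold change lay inside 1.5-fold in either direction, the exceptions being Wasl and Limk1, and for 44 inside 2-fold, the exception being Limk1. For 34 it lay within 0.32 of 0 on the log2 scale, and Tmsb10, Was, Cfl1 and Diaph1 were among the genes whose interval reached further. These intervals hold for 1 gene at a time. The replicate SD was 5.6% of the mean in the KO-labelled and 5.8% in the WT-labelled libraries for the median gene.

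**Figure D1:**
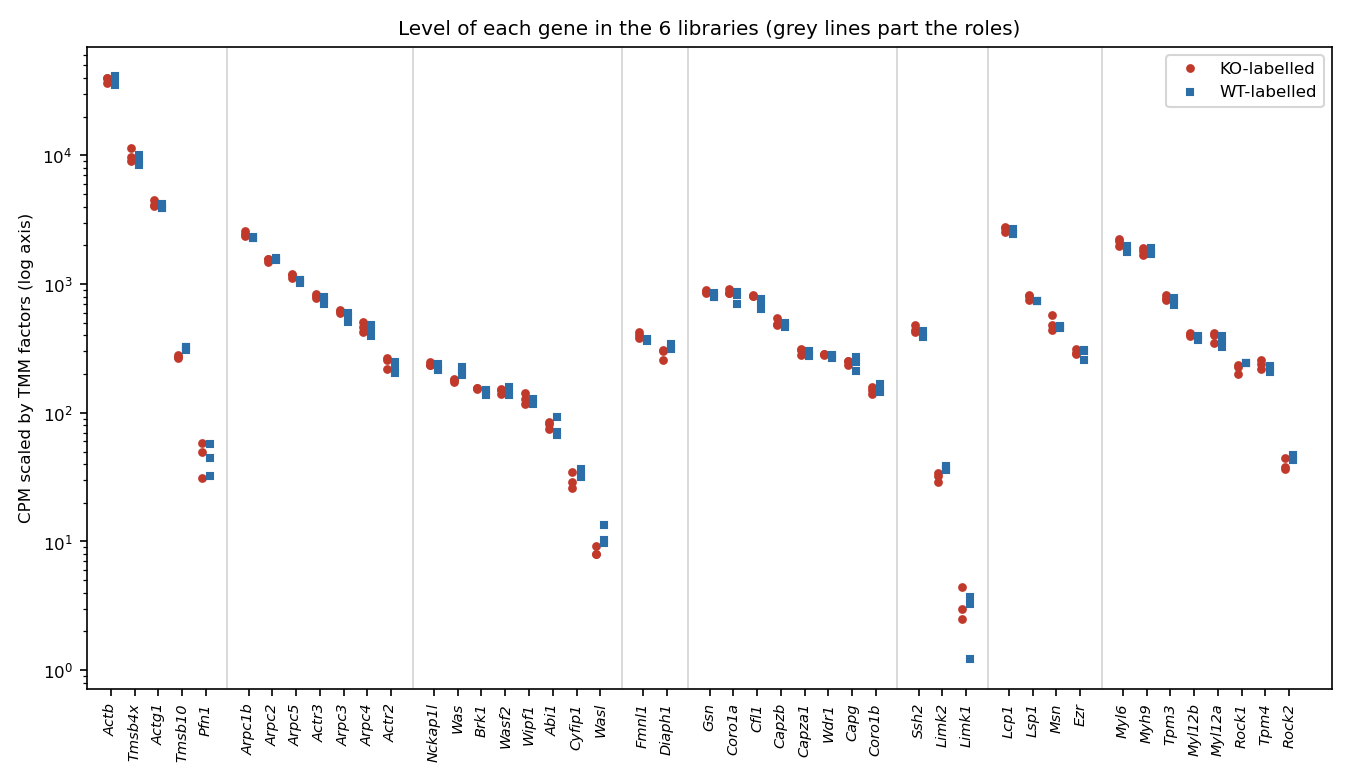
Level of each of the 45 genes in the 6 libraries, in CPM scaled by TMM factors on a log axis, with circles for the 3 KO-labelled and squares for the 3 WT-labelled libraries; grey lines part the roles. Actb stands highest, at 35239 to 41314 CPM, and Limk1 lowest, at 1.21 to 4.45 CPM, with the KO-labelled points left of the WT-labelled ones for each gene.

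Tag levels of different genes are set side by side without division by length, since each transcript gives its tag at the 3′ end; how well each end is primed and annotated still enters a level. Actb, the gene of beta-actin (chr5:142903115-142906754, minus strand, mm10), was the most abundant member and ranked 3 among all tested genes. It had 36754, 39982 and 39784 CPM in KO 1, 2 and 3, against 41314, 40899 and 35239 CPM in WT 1, 2 and 3. The ranges overlapped, and the log2 fold change was -0.012 (95% interval -0.14 to 0.12; adjusted p = 0.961). Actg1, the gene of gamma-actin, which differs from beta-actin in a few residues at the start of the protein, had 4095, 4054 and 4481 CPM in the KO-labelled libraries, against 3915, 4201 and 3901 CPM in the WT-labelled ones. These ranges overlapped too (log2 fold change 0.072, interval -0.063 to 0.21).

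Tmsb4x, which encodes thymosin beta 4, the main buffer of actin monomers, ranked 9 among all tested genes (chromosome X). Its levels were 11341, 9049.6 and 9655 CPM in KO 1, 2 and 3, against 8455, 9045 and 10006 CPM in WT 1, 2 and 3, with overlapping groups (log2 fold change 0.13, interval -0.046 to 0.30, adjusted p = 0.616). Tmsb10, which encodes thymosin beta 10, a closely related monomer-binding protein, had the smallest p of the 45 (chr6:72957347-72958748, minus strand). It stood at 265.8, 279.6 and 269.8 CPM in the KO-labelled libraries, against 323, 305 and 326 CPM in the WT-labelled libraries. All 3 KO-labelled libraries were lower, with means of 272 ± 7.1 and, in WT-labelled libraries, 318 ± 11.3 CPM (SD, n = 3 each). The log2 fold change was -0.23 (SE 0.074, adjusted p = 0.213), and it passed the test with scaling to total counts only (adjusted p = 0.0421). The last 300 bases of Tmsb10 match Gm9844 at 99.3% identity, a gene with 93 counts in all against 14324 for Tmsb10. Pfn1, which encodes profilin, was far lower in tags than the other monomer-binding genes: 50.01, 30.9 and 58.6 CPM in the KO-labelled libraries, against 32.3, 44.6 and 57.1 CPM in the WT-labelled libraries. Its replicates spread widely, with an SD of 30.5% of the mean in KO-labelled and 27.9% in WT-labelled libraries, from 210 to 525 counts a library. The interval ran from -0.38 to 0.51 on the log2 scale. How fully the 3′ end of Pfn1 was counted was not tested, so its tag level may not stand for its transcript level.

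A CArG box, the element bound by the serum response factor SRF, was looked for in the RefSeq promoter windows (build GRCm38.p6; 250 bases before to 50 after a start) because SRF is known to drive actin genes. The search took the exact box on both strands and found it in 3 of the 38 members with a window (7.89%), against 488 of 27025 genes with a window (1.81%). With 1 G or C allowed in the A/T run, it was in 6 of the 38 (15.8%), against 11.3% of all genes with a window. The members without a window were Actb, Rock1, Cyfip1, Lsp1, Diaph1, Coro1b and Nckap1l. The 3 windows are shown because they hold the box, which is in capitals, within a gamma-actin, an Arp2/3 subunit and a myosin light chain gene; the remainder of each window is in lower case, 5′ to 3′ on the strand of the gene.
Actg1 (chr11:120348446-120348745, minus strand): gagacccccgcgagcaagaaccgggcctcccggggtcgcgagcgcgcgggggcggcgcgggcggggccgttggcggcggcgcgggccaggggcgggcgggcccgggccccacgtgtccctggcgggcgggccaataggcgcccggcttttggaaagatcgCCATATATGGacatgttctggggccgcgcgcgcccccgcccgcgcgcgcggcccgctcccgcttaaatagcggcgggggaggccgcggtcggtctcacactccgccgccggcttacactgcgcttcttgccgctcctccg
Myl6 (chr10:128492960-128493259, minus strand): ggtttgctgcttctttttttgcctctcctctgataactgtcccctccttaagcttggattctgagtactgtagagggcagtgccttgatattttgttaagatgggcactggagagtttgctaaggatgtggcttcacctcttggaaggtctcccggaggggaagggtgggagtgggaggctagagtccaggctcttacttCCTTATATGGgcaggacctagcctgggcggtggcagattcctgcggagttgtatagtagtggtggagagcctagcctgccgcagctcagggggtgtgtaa
Arpc4 (chr6:113377863-113378162, plus strand): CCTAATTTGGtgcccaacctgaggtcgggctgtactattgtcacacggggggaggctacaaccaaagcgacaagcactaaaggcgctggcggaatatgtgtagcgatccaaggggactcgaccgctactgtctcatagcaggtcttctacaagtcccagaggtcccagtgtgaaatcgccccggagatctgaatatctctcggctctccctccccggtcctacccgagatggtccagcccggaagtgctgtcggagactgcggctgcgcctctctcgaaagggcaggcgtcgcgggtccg
The box begins 90 bases before the start in Actg1, 50 before it in Myl6, where the other of its 2 windows holds none, and 250 before it in Arpc4. A match describes these letters and not a site in use. None of the 3 genes was called (log2 fold change 0.072 for Actg1, 0.16 for Myl6 and 0.063 for Arpc4). Srf itself averaged 69.0 ± 6.6 CPM in KO-labelled and 65.4 ± 8.6 CPM in WT-labelled libraries (SD, n = 3 each; adjusted p = 0.867).

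The 7 subunits of the Arp2/3 complex, which are present once each in the assembled complex, spanned a 10.1-fold range of tag levels in the same order in every library. Over the 6 libraries the order was Arpc1b (mean 2386 CPM), Arpc2 (1551), Arpc5 (1109), Actr3 (779.8), Arpc3 (583), Arpc4 (456) and Actr2 (236), and neighbours in that order did not overlap in range. Arpc1b, the beta-propeller subunit of blood cells (chr5:145114215-145130705, plus strand), had 2385, 2595 and 2461 CPM in KO 1, 2 and 3, against 2264, 2339 and 2272.5 CPM in WT 1, 2 and 3. The groups did not overlap, yet the interval of the log2 fold change reached from -0.019 to 0.25 (adjusted p = 0.528). Arpc5 had 1172, 1189 and 1121 CPM in the KO-labelled libraries, against 1068, 1079 and 1024 CPM in the WT-labelled ones (log2 fold change 0.13, interval -0.0057 to 0.28, adjusted p = 0.466). Arpc3 had 626, 619 and 595.4 CPM in the KO-labelled libraries, against 509, 555 and 595.2 CPM in the WT-labelled ones, so that KO 3 and WT 3 nearly met (adjusted p = 0.490). Actr2 and Actr3, the subunits that resemble actin and start the branch, had log2 fold changes of 0.14 and 0.11, Arpc4 of 0.063 and Arpc2 of -0.021, all with overlapping groups. Exons of Arpc4 overlap Ttll3 on the same strand and share 190 bases at its end, so its counts are uncertain. All 7 subunits together took 0.704% ± 0.0042 of all counts in KO-labelled and 0.712% ± 0.013 in WT-labelled libraries (SD, n = 3 each). With S100a8 and S100a9 left out of the total, the order turned, at 0.927% ± 0.0075 in KO-labelled and 0.915% ± 0.014 in WT-labelled libraries.

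**Figure D2:**
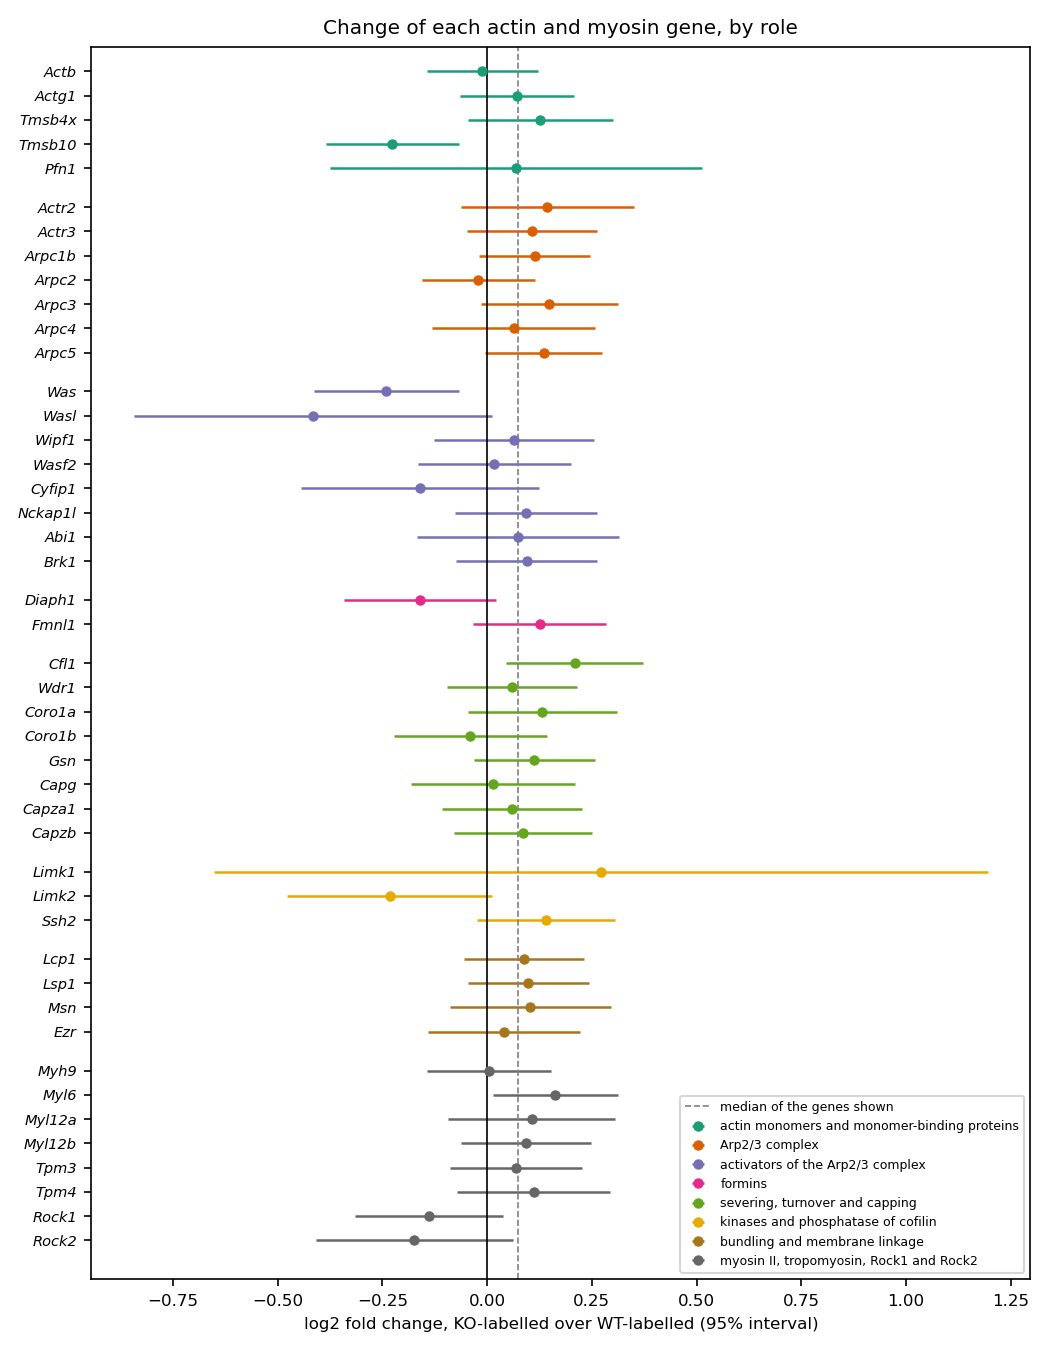
Log2 fold change of each of the 45 genes, KO-labelled over WT-labelled, with its 95% interval from the edgeR fit, grouped and coloured by role; the solid line marks 0 and the dashed line the median of 0.073. The intervals of Tmsb10, Was, Cfl1 and Myl6 leave out 0, and the widest intervals are those of Limk1, Pfn1 and Wasl.

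Among the activators of the Arp2/3 complex, Was and Wasl were at lower levels in the KO-labelled libraries and did not pass the test, and the WAVE subunits did not pass it either. Was encodes WASP, the activator specific to blood cells (chrX:8081453-8090498, minus strand). It had 174, 184 and 179 CPM in KO 1, 2 and 3, against 225, 213 and 197 CPM in WT 1, 2 and 3, and the groups did not overlap. The log2 fold change was -0.24 (SE 0.081, adjusted p = 0.232), and scaling to total counts only brought it past the test (-0.34, adjusted p = 0.0438). Stretches near the 3′ end of annotated Was transcripts match Psmd11 over 148 bases at 95.9% identity and Hook3 over 57 bases. Psmd11 had 3190 and Hook3 4472 counts in all, against 9522 for Was. Whether the matches lie where tags of Psmd11 and Hook3 arise was not tested. How many counts of Was could be shared with these genes is therefore not known. Wasl, which encodes N-WASP, the relative found in most tissues, was 20.0-fold less abundant than Was. It had 9.17, 7.94 and 8.03 CPM in the KO-labelled libraries, against 10.3, 13.4 and 9.70 CPM in the WT-labelled ones, from 54 to 131 counts a library. All KO-labelled libraries were lower, and the log2 fold change was -0.42 with an interval of -0.84 to 0.011 (adjusted p = 0.455). Wipf1, whose product WIP stabilises WASP, averaged 129 ± 12.9 CPM in KO-labelled and 123 ± 5.0 CPM in WT-labelled libraries (SD, n = 3 each; log2 fold change 0.064).

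The WAVE complex, which drives the broad leading edge, has 5 subunits. In the 6 libraries Nckap1l, which encodes Hem-1, its blood cell subunit, stood first with a mean of 232 CPM. Brk1 (150.02 CPM) and Wasf2 (147 CPM), the gene of WAVE2, overlapped in range, with Brk1 above Wasf2 in 5 of 6 libraries. Abi1 (78.8 CPM) and Cyfip1 (31.7 CPM), the Rac-binding subunit, followed with ranges apart from their neighbours. Brk1 was the one subunit whose groups did not overlap: 153, 157 and 155 CPM in the KO-labelled libraries, against 151, 137 and 147 CPM in the WT-labelled libraries (log2 fold change 0.094, adjusted p = 0.732). The other log2 fold changes were 0.093 for Nckap1l, 0.073 for Abi1, 0.018 for Wasf2 and -0.16 for Cyfip1 (adjusted p = 0.729). Cyfip2, a relative of Cyfip1 that is no member and was picked out after its level was seen, was 10.4-fold more abundant, at 343 ± 19.2 CPM in KO-labelled and 319 ± 10.9 CPM in WT-labelled libraries (SD, n = 3 each; adjusted p = 0.678).

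The 2 formins had opposite signs, and neither passed the test. Diaph1 encodes mDia1, a formin that lengthens unbranched filaments. It had 307, 259 and 305 CPM in KO 1, 2 and 3, against 311, 343 and 319.7 CPM in WT 1, 2 and 3, and all KO-labelled libraries were lower (log2 fold change -0.16, interval -0.34 to 0.022, adjusted p = 0.512). Fmnl1, a formin of blood cells, had 380.1, 426 and 402 CPM in the KO-labelled libraries, against 376, 368 and 364 CPM in the WT-labelled ones, and all KO-labelled libraries were higher (log2 fold change 0.13, interval -0.033 to 0.28, adjusted p = 0.573).

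In the group that severs, recycles and caps filaments, 7 of 8 genes lay above 0 and none passed the test. All 8 had a mean of at least 100 CPM, a level at which 75.7% of all tested genes lay above 0. Cfl1, the gene of cofilin, which severs old filaments (chr19:5490455-5495201, plus strand), had 804, 821 and 814 CPM in KO 1, 2 and 3, against 708, 763 and 638 CPM in WT 1, 2 and 3. The KO-labelled libraries lay close together and above the WT-labelled ones, at 813 ± 8.6 against 703 ± 62.9 CPM (SD, n = 3 each). Its log2 fold change was 0.21 (SE 0.076, interval 0.046 to 0.37, adjusted p = 0.285). A stretch near the 3′ end of Cfl1 matches Arcn1 over 140 bases at 95.7% identity. Arcn1 had 1486 counts in all, against 36813 for Cfl1. Wdr1, whose product Aip1 speeds severing by cofilin, averaged 284 ± 3.9 CPM in KO-labelled and 272 ± 6.3 CPM in WT-labelled libraries (SD, n = 3 each). Those groups did not overlap, at a log2 fold change of 0.060. Coro1a, the coronin of blood cells, had 860.0, 923 and 850.2 CPM in the KO-labelled libraries, against 820.3, 876 and 706 CPM in the WT-labelled ones (log2 fold change 0.13, adjusted p = 0.609). Coro1b had 158, 151 and 140.2 CPM in the KO-labelled libraries, against 149, 166 and 145 CPM in the WT-labelled ones, with exons that overlap Ptprcap on the same strand, which leaves its counts uncertain. Both coronin genes had overlapping groups.

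Gsn and Capg encode gelsolin and a capping protein of the same family, both switched on by calcium. Gsn averaged 878 ± 20.7 CPM in KO-labelled and 813 ± 29.8 CPM in WT-labelled libraries (SD, n = 3 each), without overlap of the groups (log2 fold change 0.11, adjusted p = 0.581), and Capg had a log2 fold change of 0.014. The capping protein of filament ends is a pair of chains. Capza1, for the alpha chain, had 308, 284 and 316 CPM in the KO-labelled libraries, against 278, 289 and 304 CPM in the WT-labelled ones. Capzb, for the beta chain, had 549, 489 and 486 CPM in the KO-labelled libraries, against 470.2, 502 and 463 CPM in the WT-labelled ones. Both genes had overlapping groups, at log2 fold changes of 0.060 and 0.086.

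LIM kinases switch cofilin off and slingshot phosphatases switch it on again. Limk2 was the main kinase gene in these cells, with 32.2, 33.8 and 29.0 CPM in KO 1, 2 and 3, against 38.5, 36.7 and 36.3 CPM in WT 1, 2 and 3. All KO-labelled libraries were lower (log2 fold change -0.23, interval -0.48 to 0.012, adjusted p = 0.471). Limk1, at 4.45, 2.50 and 3.01 CPM in the KO-labelled libraries, against 3.68, 3.27 and 1.21 CPM in the WT-labelled ones, rested on 9 to 33 counts a library. Its interval, -0.65 to 1.195, held both no difference and one of 2-fold. Ssh2, the slingshot gene among the 45, averaged 448 ± 26.1 CPM in KO-labelled and 407 ± 22.4 CPM in WT-labelled libraries (SD, n = 3 each). Its log2 fold change was 0.14 (adjusted p = 0.531). Its groups overlapped, and its level was more than 10-fold above that of either kinase gene.

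**Figure D3:**
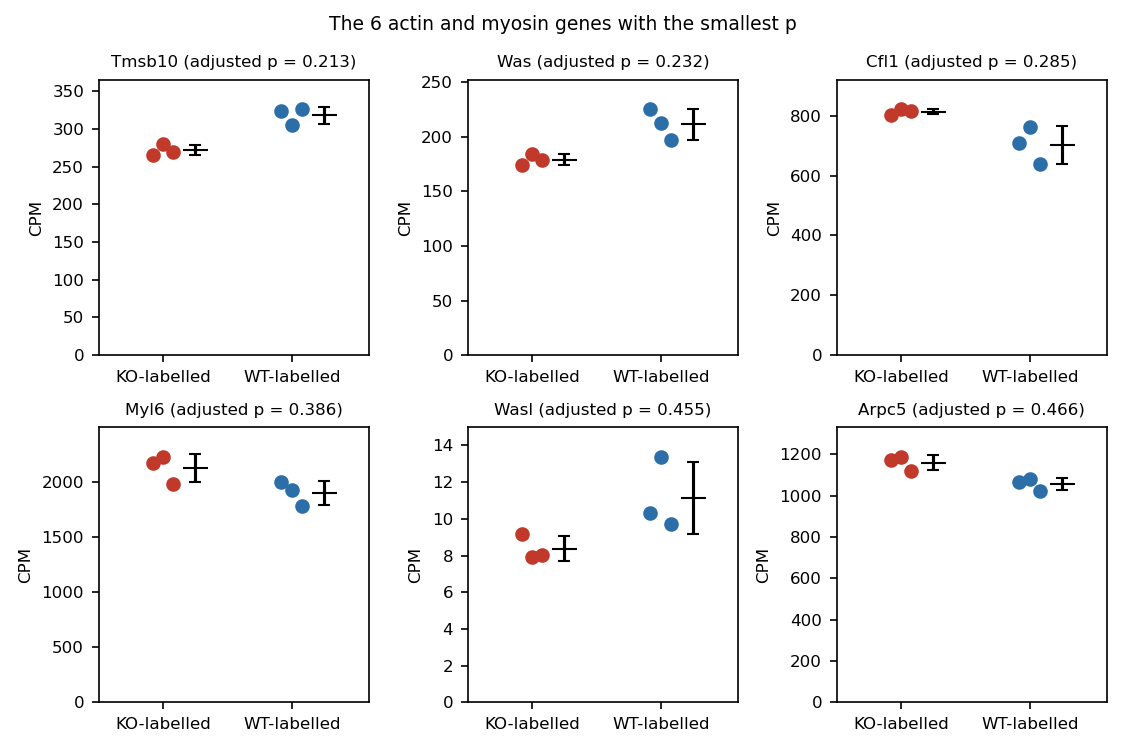
CPM in each library of the 6 members with the smallest p, KO-labelled left and WT-labelled right; the bar and whiskers beside the points are the mean and SD of 3 libraries. The groups are apart for Tmsb10, Was, Cfl1, Wasl and Arpc5 and overlap for Myl6, and the adjusted p runs from 0.213 to 0.466.

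All 4 bundling and membrane-linking genes had log2 fold changes between 0.041 and 0.10, and none passed the test. Each had a mean of at least 100 CPM, a level at which 75.7% of all tested genes lay above 0. Lcp1, the gene of the filament bundler L-plastin (chr14:75131101-75230842, plus strand), had 2804, 2752 and 2544 CPM in KO 1, 2 and 3, against 2435, 2694 and 2491 CPM in WT 1, 2 and 3, with overlapping groups (adjusted p = 0.687). Lsp1, which encodes a leukocyte actin-binding protein, averaged 791 ± 32.5 CPM in KO-labelled and 738 ± 5.4 CPM in WT-labelled libraries (SD, n = 3 each) without overlap (log2 fold change 0.099, adjusted p = 0.654). Moesin and ezrin tie the cortex to the membrane. Msn had 574, 442 and 481 CPM in the KO-labelled libraries, against 457, 466 and 471 CPM in the WT-labelled ones; KO 1 was the highest of the 6. Ezr had 288, 310.5 and 292 CPM in the KO-labelled libraries, against 302, 306 and 257 CPM in the WT-labelled ones, again with overlap.

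The myosin II heavy chain gene Myh9 differed by 0.0044 on the log2 scale (interval -0.14 to 0.15), at 1805 ± 110 CPM in KO-labelled and 1799.9 ± 91.4 CPM in WT-labelled libraries (SD, n = 3 each). Myl6, for the essential light chain (chr10:128490860-128494145, minus strand), had 2168, 2227 and 1982 CPM in KO 1, 2 and 3, against 1994, 1923 and 1779 CPM in WT 1, 2 and 3. KO 3 lay below WT 1, so the groups overlapped (log2 fold change 0.16, SE 0.070, interval 0.013 to 0.31, adjusted p = 0.386). Myl12a had 403, 348 and 416 CPM in the KO-labelled libraries, against 324, 361 and 398 CPM in the WT-labelled ones. Myl12b had 411, 396 and 415 CPM in the KO-labelled libraries, against 366, 383 and 397 CPM in the WT-labelled ones. These genes encode near-identical regulatory light chains, whose phosphorylation switches the motor on. The end of an annotated Myl12a transcript matches a stretch of Myl12b over 300 bases at 96.3% identity. No end of a Myl12b transcript matched Myl12a in the same search. Whether the stretch lies where tags of Myl12b arise was not tested, so each value alone stays uncertain.

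Tpm3 and Tpm4 encode tropomyosins that line filaments and favour myosin. Tpm3 had 775, 818 and 753 CPM in the KO-labelled libraries, against 785, 758 and 693 CPM in the WT-labelled ones, and Tpm4 had 240.1, 219 and 258 CPM in the KO-labelled libraries, against 207, 224 and 233 CPM in the WT-labelled ones. Their groups overlapped (log2 fold change 0.070 and 0.11). Rock1 and Rock2, which encode kinases that raise light chain phosphorylation, lay on the other side of 0. Rock1 had 227, 237 and 200.1 CPM in the KO-labelled libraries, against 243, 243 and 245 CPM in the WT-labelled ones, and all KO-labelled libraries were lower (log2 fold change -0.14, interval -0.31 to 0.037, adjusted p = 0.573). Rock2 had 44.8, 36.8 and 38.1 CPM in the KO-labelled libraries, against 46.6, 43.3 and 45.01 CPM in the WT-labelled ones, where KO 1 overlapped (log2 fold change -0.17, adjusted p = 0.612).

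Related genes can also be compared as shares within a library, which do not depend on how libraries are scaled. In 10 such pairs the share of the first gene was set against its group label by exact permutation of the 6 libraries, two-sided, where 0.1 is the smallest p possible. Tmsb4x made up 97.7%, 97.0% and 97.3% of the tags of both thymosin genes in KO 1, 2 and 3, against 96.3%, 96.7% and 96.8% in WT 1, 2 and 3. All KO-labelled libraries were higher, by 0.695 percentage points in the mean (exact p = 0.1; adjusted p = 0.875 over the 10 pairs). Actb made up 90.2% ± 0.50 of Actb and Actg1 tags in KO-labelled and 90.7% ± 0.66 in WT-labelled libraries (SD, n = 3 each; exact p = 0.4). Was made up 95.5% ± 0.46 of Was and Wasl tags in KO-labelled and 95.0% ± 0.81 in WT-labelled libraries (exact p = 0.5). The thymosin pair was the one pair of the 10 without overlap. With shuffled labels the groups of a pair lie apart with a probability of 0.1, which is also the share seen here.

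Coro1a took 85.4% ± 0.80 of coronin tags in KO-labelled and 83.9% ± 0.86 in WT-labelled libraries (SD, n = 3 each; exact p = 0.2). Rock1 took 84.7% ± 1.6 of Rock1 and Rock2 tags in KO-labelled and 84.4% ± 0.50 in WT-labelled libraries, and Tpm3 took 76.6% ± 2.2 of the tropomyosin pair in KO-labelled and 77.1% ± 2.2 in WT-labelled libraries (SD, n = 3 each). Msn took 62.5% ± 4.0 of moesin and ezrin tags in KO-labelled and 61.8% ± 2.6 in WT-labelled libraries. Each of these pairs held its order in all 6 libraries. Myl12a and Myl12b were near balance, with Myl12a at 48.8% ± 1.8 in KO-labelled and 48.5% ± 1.6 in WT-labelled libraries. Capza1 took 37.3% ± 1.8 of capping tags in KO-labelled and 37.8% ± 1.7 in WT-labelled libraries, and Limk1 took 9.47% ± 2.6 of LIM kinase tags in KO-labelled and 6.71% ± 3.0 in WT-labelled libraries (SD, n = 3 each). For these pairs other than the coronins the exact p ran from 0.4 to 1.

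**Figure D4:**
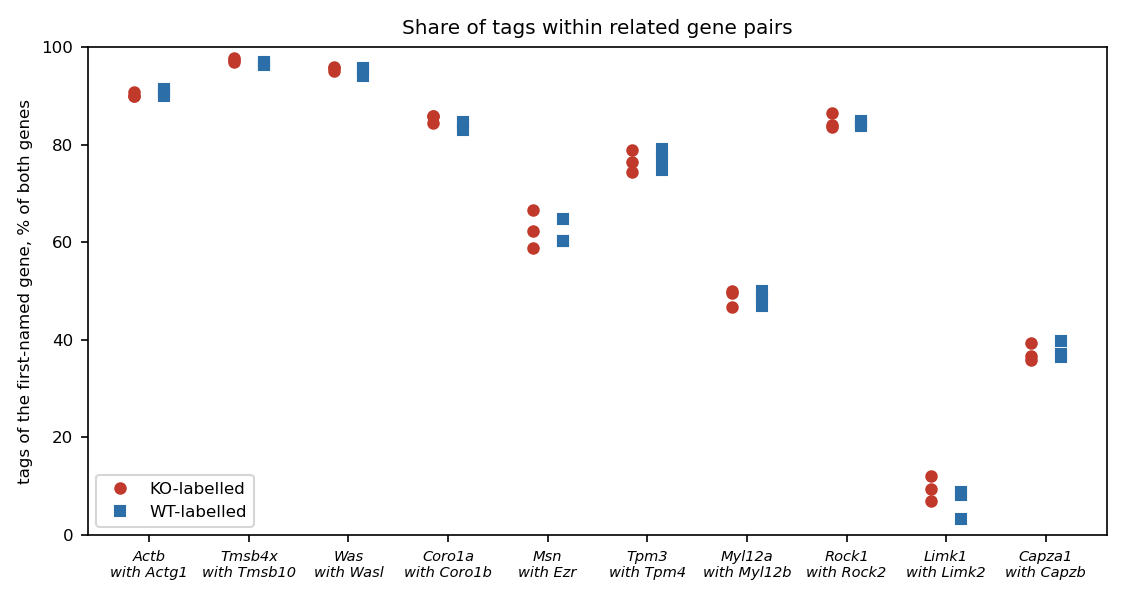
Tags of the gene named first as a percentage of the tags of both genes of a pair, in the 3 KO-labelled (circles) and 3 WT-labelled (squares) libraries. Shares run from about 97% for Tmsb4x to under 13% for Limk1, and the groups are apart in the thymosin pair only. With shuffled labels a pair lies apart with a probability of 0.1.

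The 45 genes together took 7.34%, 7.35% and 7.59% of all counts in KO 1, 2 and 3, against 7.89%, 7.86% and 7.56% in WT 1, 2 and 3. Without S100a8 and S100a9 in the total, the shares were 9.74%, 9.71% and 9.91% in the KO-labelled libraries, against 10.1%, 10.2% and 9.66% in the WT-labelled ones. WT 3 lay within or below the KO-labelled range in both counts. Actb alone took 3.74% ± 0.18 of all counts in KO-labelled and 4.04% ± 0.28 in WT-labelled libraries, and the remaining members 3.69% ± 0.12 in KO-labelled and 3.72% ± 0.10 in WT-labelled libraries (SD, n = 3 each). Without S100a8 and S100a9 in the total, the members other than Actb took 4.86% ± 0.17 in KO-labelled and 4.79% ± 0.12 in WT-labelled libraries, which turns the order of their means. In such bulk samples, fewer cells of a type and less RNA per cell cannot be told apart.

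Beyond the 45 genes, 138 names of other cytoskeletal genes were listed, some of them older and newer names of 1 gene; 131 matched a row and 116 were tested. None was called (median log2 fold change 0.021; 66 above 0 and 50 below), and DESeq2 and limma-voom called none. At an unadjusted p under 0.05 there were 9 of the 116, where 11.4% of all tested genes were. Rac2, the main Rac of neutrophils and the most abundant of the list, averaged 2211 ± 87.9 CPM in KO-labelled and 1999.8 ± 135 CPM in WT-labelled libraries (SD, n = 3 each; log2 fold change 0.14, adjusted p = 0.448). The next in level were Arhgdib (0.087), the filament crosslinker gene Flna (0.14) and the scaffold gene Iqgap1 (0.096), with adjusted p of 0.694, 0.527 and 0.699. The smallest p of the list belonged to Aif1, an actin-bundling gene known from macrophages, at 13.2, 16.03 and 16.96 CPM in KO 1, 2 and 3, against 22.8, 23.6 and 25.9 CPM in WT 1, 2 and 3 (log2 fold change -0.64, SE 0.15, adjusted p = 0.0633). Aif1 passed the test with upper-quartile factors, with total counts only, with a filter of 5 CPM in 3 libraries and with no filter. All 3 KO-labelled libraries were lower, as were all of them for the macrophage marker sum, and the part of those cells was not tested.

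Of the filament elongation and nucleation genes, Evl, a relative of Vasp, averaged 4.96 ± 1.5 CPM in KO-labelled and 9.26 ± 0.82 CPM in WT-labelled libraries (SD, n = 3 each; log2 fold change -0.91, SE 0.25, adjusted p = 0.121). Abi3, a relative of Abi1, averaged 10.1 ± 2.6 CPM in KO-labelled and 17.4 ± 4.6 CPM in WT-labelled libraries (SD, n = 3 each; -0.76, adjusted p = 0.170). Washc4, for a subunit of the WASH complex of endosomes, was at -0.42 (adjusted p = 0.194) and the formin gene Inf2 at -0.68 (adjusted p = 0.286). Gmfg, which encodes a factor that takes Arp2/3 branches apart in blood cells, was at 0.20 (adjusted p = 0.253), with 728 ± 33.0 CPM in KO-labelled and 632 ± 23.2 CPM in WT-labelled libraries (SD, n = 3 each). Pak1, a kinase gene downstream of Rac, was at -0.26 (adjusted p = 0.318) and Pxn, the gene of the adhesion protein paxillin, at 0.16 (adjusted p = 0.399). Of these 8 genes with the smallest p, Abi3 was the one whose groups overlapped, but a choice by smallest p favours groups that lie apart. In the whole list 20 of the 116 tested genes (17.2%) had groups that did not overlap, against 16.8% of all tested genes. Abi3 and Evl, like Aif1, passed the test when no filter on low counts was used.

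**Figure D5:**
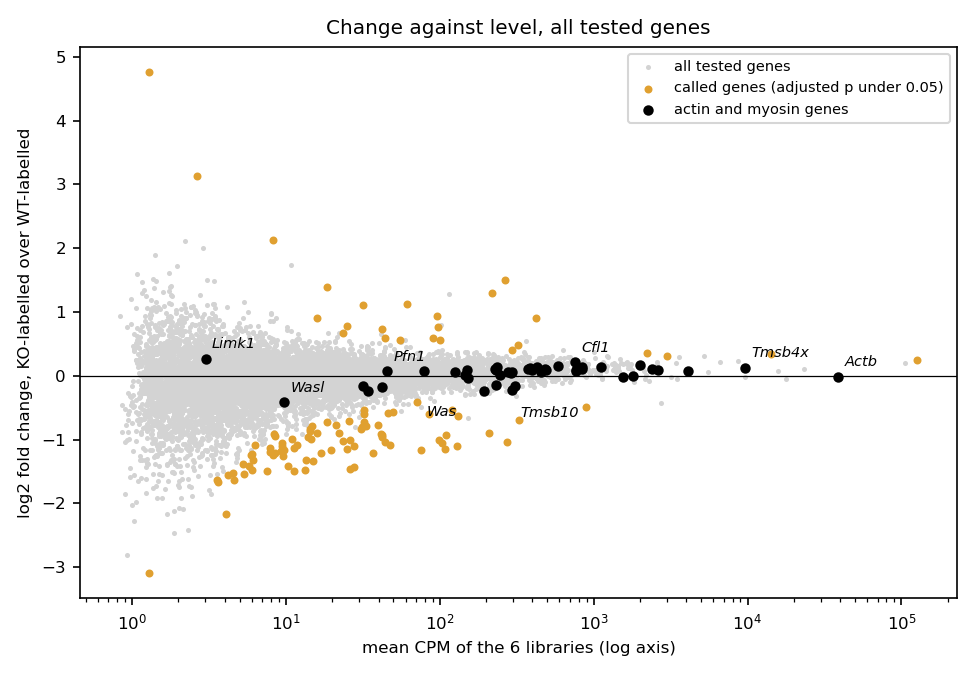
Log2 fold change, KO-labelled over WT-labelled, against mean CPM of the 6 libraries (log axis) for all 10397 tested genes (grey), the 107 called genes (orange) and the 45 actin and myosin genes (black). The members lie along 0 towards the abundant side, and Limk1 and Wasl stand at low levels where the grey points spread most.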

How the data were processed

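Polyadenylated RNA of 6 samples was sequenced from Lexogen QuantSeq libraries, per the labels. The authors deposited 1 table of read counts, whole numbers for each Ensembl gene. The submitters' processing notes name RSEM 1.2.3, DESeq2 and mm10 without saying what each was used for, and nothing here gives the aligner, annotation release or strand setting. RSEM can divide reads among genes, so counts of near-identical or overlapping genes are uncertain: of the 45 genes, 5 have exons that overlap another gene on their strand, 14 overlap one on the other strand, and 14 have a transcript end (last 300 bases) that matches another gene over at least 50 bases at 95% identity or more.

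Columns were assigned by name. Symbols and coordinates came from GENCODE vM21 (GRCm38), which named 51596 of 51789 identifiers. Counts were fitted with edgeR 4.0.16 in R 4.3.3 (TMM factors; filterByExpr, minimum count 10; glmQLFit and glmQLFTest; group as the one term) over all 10397 tested genes, with Benjamini-Hochberg adjustment at 0.05. The SE is the log2 fold change divided by the square root of F, and intervals use the t quantile. Alternatives were DESeq2 1.42.0, limma-voom (limma 3.58.1), RLE, upper-quartile and total-count scaling, other filters, the replicate number as a block, and leaving out each library. The procedure was also run on simulated data, whose outcome is not reported here and is used for no result above. Replicates differed beyond sampling noise (chi-square per degree of freedom 4.12 to 6.79).

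The members, gene lists and naming rule were chosen with earlier results of these data known. Values per library are given for the 10 members with the smallest p, the 6 most abundant and the members of 10 related pairs. They are also given for Pfn1, Brk1 and Fmnl1, which fall outside that rule. The groups of Brk1 and Fmnl1 do not overlap. Of the other cytoskeletal genes, values are given for the 8 with the smallest p and the 4 most abundant, and outside the rule for Srf and Cyfip2.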

Additional observations from a re-analysis of the deposited data

How the results depend on the processing

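The call of no member held in 13 of 14 alternatives; with total counts only, 2 members (Tmsb10 and Was) passed as lower. That scaling gave 162 calls among all genes (88.9% lower, against 76.6%), no filter 287 (60.3% lower) and DESeq2 63 higher and 81 lower, 56.2% lower. Leaving out WT 1, 2 or 3 gave 57, 49 or 62 calls and leaving out KO 1, 2 or 3 gave 67, 61 or 97. The median of the members was -0.0312 with total counts only. The same scaling changed the sign of 19 members, 17 of them by more than the SE: Actg1 -0.0312, Arpc4 -0.0402, Wipf1 -0.0387, Wasf2 -0.0852, Nckap1l -0.0095, Brk1 -0.0107, Wdr1 -0.0434, Capg -0.0881, Capza1 -0.0445, Capzb -0.0178, Lcp1 -0.0161, Lsp1 -0.0054, Msn -0.0004, Ezr -0.0618, Myh9 -0.0996, Myl12b -0.0123 and Tpm3 -0.0346. The shift of all genes with this scaling is part of its construction. Without 1 library Pfn1 ran from -0.1399 to 0.2855 and Msn from -0.008 to 0.1811. Of the members 23 kept 1 sign in every alternative. Of the other cytoskeletal genes 1 (Aif1) passed with upper-quartile factors, with total counts only and with the filter of 5 CPM in 3 libraries, and 3 passed with no filter; the cause was not tested. With 1 G or C allowed in its A/T run, the CArG box was in 6 of the 38 members (15.8%, against 11.3% of all genes). The replicate numbers showed no sign of pairing (correlation of deviations -0.026, -0.012 and -0.131), but 3 libraries a group cannot exclude it. With a replicate block 0 members and 92 of all genes were called. The members with the fewest counts were Limk1, with 9 to 33 a library, and Wasl, with 54 to 131; the part of depth in their wide intervals was not tested.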
